A study of Mus musculus with 8 samples.

Results

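The interferon response genes described here are 39 mouse genes that cells are known to switch on after exposure to interferon. Members were taken as the probe sets whose only gene symbol in the platform annotation was one of the 39, and a gene with several such probe sets was read from the one with the highest mean over the 8 arrays. This gave a value for 37 of the 39, out of 18193 genes with a single-symbol probe set in all. Of the 37, 30 were bright enough to be tested, with a mean log2 signal at or above the 40th percentile of all probe sets (5.37). Mx1, Ifit1, Cxcl10, Oas3, Mx2, Oasl2 and Ddx60 fell below that level. Ifi44 had no single-symbol probe set, and Isg15 had only a probe set with several symbols, so neither has a value.

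The cells were mouse reprogramming cells of C57BL/6 background from a secondary system, in which the factors Oct4, Sox2, Klf4 and Myc (OSKM) are switched on by doxycycline. All groups received doxycycline, which the labels give as 2 mg/ml. The medium was one for embryonic stem cells, containing 15% serum and 100 units/ml leukemia inhibitory factor. Doses are given as labelled, and whether micro units were meant for CSA and doxycycline could not be checked. The groups were CSA (10 mM, as the labels write it) at day 3, DMSO at day 3, CSA (10 mM) at day 6 and DMSO at day 6, with 2 arrays each. CSA is cyclosporin A, which blocks the phosphatase calcineurin and so keeps NFAT transcription factors out of the nucleus, and DMSO is its solvent. The submitters call the arrays of a group biological repeats, and the sources used here do not say whether they came from separate cell lines, clones or animals. The study asked which genes differ when the calcineurin-NFAT pathway is inhibited at each day.

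Interferons are secreted proteins that act on receptors at the cell surface. Type I receptors signal through JAK kinases to a complex of STAT proteins and Irf9, which binds a promoter element called the ISRE, while interferon gamma acts mainly through another element, the GAS. The induced genes encode RNA sensors, enzymes that block or degrade viral RNA, membrane proteins that restrict virus entry or release, GTPases, and factors such as Irf7 and Usp18 that amplify or damp the response. Pluripotent cells are known for a weak interferon response, and fibroblasts for a strong one.

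RefSeq promoter sequences (GRCm38.p6, 250 bases before to 50 bases after the annotated start) were found for 31 of the 39 genes. The core ISRE letters GAAANNGAAA, searched on both strands, occurred in the promoters of 18 of the 31 genes, which is 58.1%, against 1079 of 27025 genes in the table, or 3.99%. The GAS letters TTCNNNGAA occurred in 9 of the 31, or 29.0%, against 9.55% of all genes. The GAS match shared bases with an ISRE match in Bst2 and Ifitm3. Rtp4, Usp18, Oas2, Mx1, Mx2, Dhx58, Parp14 and Parp9 had no entry. The windows below are shown because these genes carry the results that follow or head a branch of the pathway, and the capitals mark the ISRE core, or the GAS letters in the case of Irf1. A match is a description of the letters and does not show a bound site.
Ifitm3 (chr7:141010723-141010752, minus strand): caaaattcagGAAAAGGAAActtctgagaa
Ifitm3, further downstream (chr7:141010706-141010735, minus strand): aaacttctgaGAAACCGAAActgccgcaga
Irgm1 (chr11:48871425-48871454, minus strand): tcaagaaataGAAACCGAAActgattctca
Rsad2 (chr12:26456553-26456582, plus strand): tctgttttctGAAAATGAAAgttggaccag
Ifih1 (chr2:62646206-62646233, minus strand): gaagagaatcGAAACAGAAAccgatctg
Ddx58 (chr4:40239804-40239833, plus strand): ctggccatagGAAATCGAAActgcctcagg
Ifit1 (chr19:34640794-34640823, minus strand): tcagcagtgaGAAACTGAAActgagactgg
Stat2 (chr10:128270266-128270295, minus strand): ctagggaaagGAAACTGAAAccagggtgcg
Irf1 (chr11:53769914-53769942, plus strand): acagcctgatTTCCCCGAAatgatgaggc
Every window shown except that of Irf1 holds GAAA, a variable pair of bases and GAAA, because it was found by searching for these letters. Those of Ifitm3, Irgm1, Ifih1 and Ddx58 lie close to the annotated start. Irf9, Irf7 and Xaf1, which are prominent in the results, had no match in these windows.

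All values are log2 signals as deposited, so a difference of 1 is a doubling, and levels are compared within a gene only, because probe sets differ in brightness. Most members were dim. Only 8 of the 37 lay above the 70th percentile of all probe sets (Ifitm3, Ifi35, Trim25, Bst2, Xaf1, Eif2ak2, Oas1a and Irf1), and these had a median SD within groups of 0.16. The 22 tested members at or below that percentile had a median SD of 0.50, with a highest SD of 1.49, and the 7 members below the filter had a median of 0.98. No member was listed at 0 on any array. The within-group correlation between arrays was 0.968 to 0.974 over the tested probe sets, and detection calls were not used here.

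The median log2 signal over the 30 tested members was 6.97 and 6.94 on the CSA arrays of day 3, against 6.58 and 6.64 on the DMSO arrays. At day 6 it was 7.93 and 7.74 with CSA, against 7.32 and 7.06 with DMSO. The CSA arrays thus had the higher member median at each day, and every day 6 array had a higher member median than every day 3 array. The median over all tested probe sets was 8.22 to 8.24 at day 3 and 8.44 to 8.47 at day 6. In a bulk culture, fewer cells that carry a transcript and less of it per cell cannot be told apart.

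**Figure D1:**
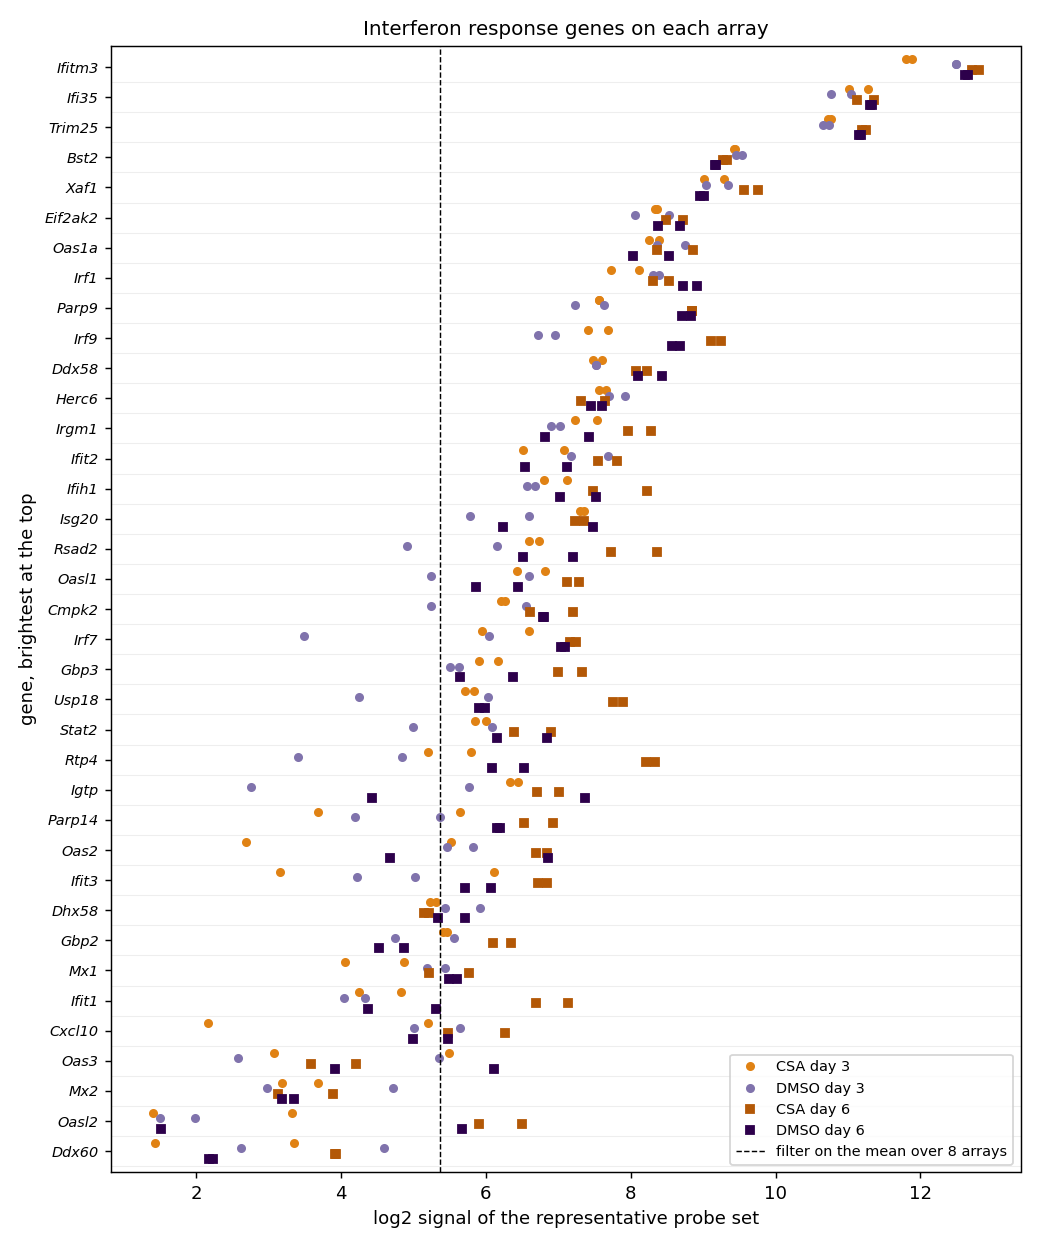
Log2 signal of the 37 interferon response genes with a probe set on each of the 8 arrays, as 1 row per gene, with 1 point per array in the color of its group (CSA or DMSO, day 3 or day 6) and a dashed line at the filter of 5.37. Ifitm3 is the brightest gene, and the dim genes at the bottom spread most between arrays of a group.

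With CSA, few interferon response genes passed the test at day 3. Irf9, the DNA-binding subunit of the type I interferon complex, was higher with CSA, and Ifitm3, a membrane protein that restricts virus entry, was lower. Of the 30 tested members, 1 was called higher at an adjusted p under 0.05 (limma, Benjamini-Hochberg over 27022 probe sets), where 7.14% of all 12529 tested genes were. In the other direction 1 of 30 was called lower, against 5.52% of all genes. Both shares lie near the background. The difference was positive for 20 members and negative for 10, with a median of 0.19 against -0.00 over all genes. An unadjusted p under 0.05 was found for 7 members, while 2588 of the 27022 probe sets had a limma adjusted p under 0.05. The share of all genes at an unadjusted p under 0.05 was not computed. Such counts, here and below, are therefore not read as an excess.

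At day 6, 3 members were called higher with CSA, the proapoptotic factor Xaf1, the GTPase Irgm1 and the chaperone Rtp4. The background was 6.41% of all genes called higher and 6.11% called lower, and 0 of the 30 members were called lower by limma. An unadjusted p under 0.05 was found for 11 members, of which only Irf1 had a negative difference. Over all 27022 probe sets, 2612 had a limma adjusted p under 0.05. The difference was positive for 25 members and negative for 5, with a median of 0.49 against -0.01 over all genes. Without the intensity trend in limma's prior variance the day 6 calls ended, with 0 members called and 9 at an unadjusted p under 0.05. Averaged over both days, 5 of 30 members were called higher and 1 was called lower, against 9.68% and 8.87% of all genes. The 5 were Irf9, Rtp4, Rsad2, Irgm1 and Usp18, and the one called lower was Ifitm3. The Ifitm3 average joins opposite signs, -0.65 at day 3 and 0.12 at day 6, and so describes neither day. Only Irf9 passed over both days without the intensity trend. The median over both days was 0.24 against -0.01 over all genes.

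The sign of the CSA difference was positive at both days for 18 of the 30 members, or 60%, where 28.0% of all genes had this pattern. Dhx58, Herc6 and Irf1 were negative at both days. Bst2, Ifit2, Ifitm3, Oas1a, Oas2, Parp14 and Xaf1 were negative at day 3 and positive at day 6, and Ddx58 and Ifi35 were the opposite. These signs belong to the brightest probe set of each gene. Other tested probe sets of Herc6 were positive at day 6 (0.05, 0.23 and 0.79). Those of Ifi35 were negative at day 3 (-0.26 and -0.20) and positive at day 6 (0.002 and 0.51). Cmpk2, Eif2ak2, Rsad2 and Trim25 each had a tested probe set with a negative difference at 1 or both days. Most single differences behind these signs did not pass the test, and genes are not independent replicates. The members were also chosen with earlier results of these data known. The contrasts of their signs and medians with all genes, here and above, are therefore not independent tests. Of the 18, Gbp2 and Ifit3 passed the filter narrowly (means 5.38 and 5.48). Their highest group means were in CSA cells at day 6 (6.23 and 6.78), so the filter did not select them independently of CSA.

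**Figure D2:**
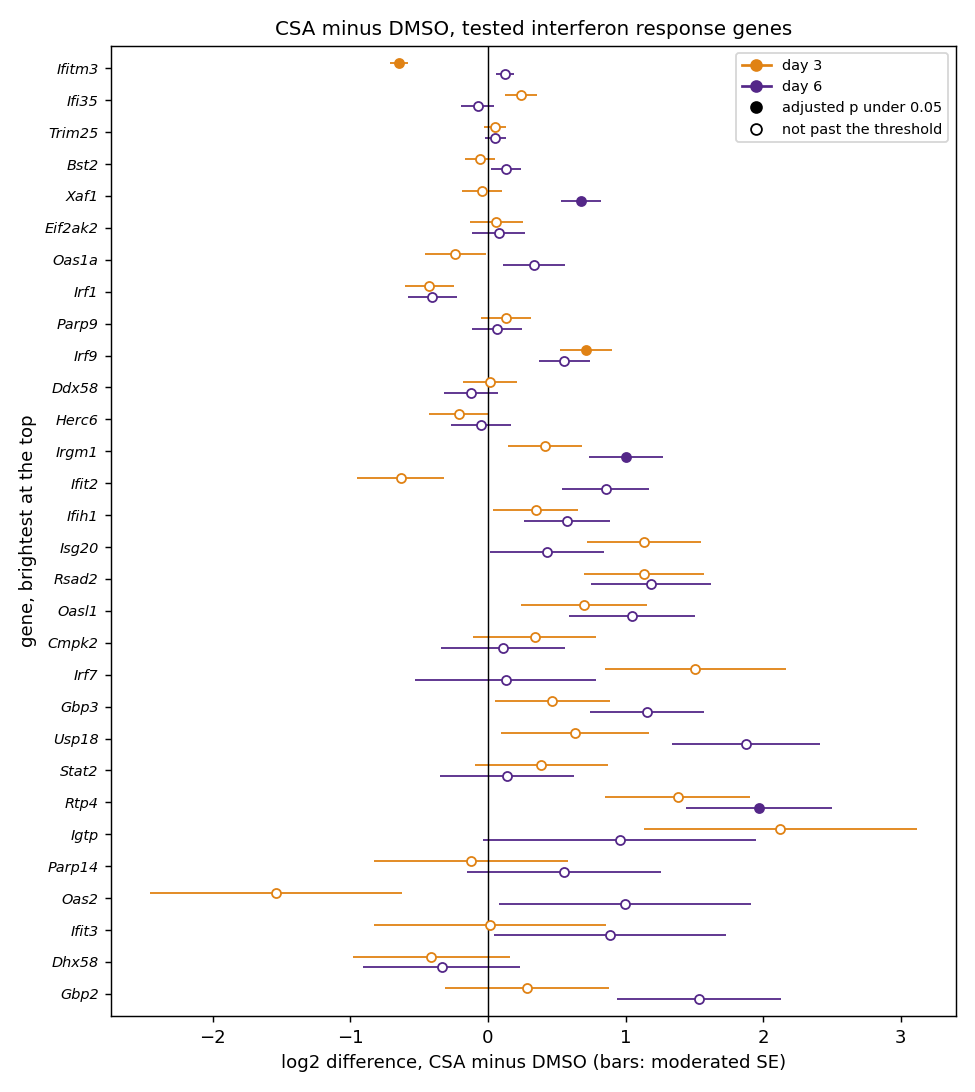
Log2 difference of CSA minus DMSO at day 6 and at day 3 for the 30 tested members, with moderated standard errors, and filled points where the adjusted p is under 0.05. Most points lie right of 0, and the bars lengthen toward the dim genes.

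Among the transcription factors, Irf9 had log2 signals of 7.69 and 7.41 in CSA cells at day 3, against 6.72 and 6.95 in DMSO cells. At day 6 it had 9.11 and 9.25 in CSA cells, against 8.57 and 8.68 in DMSO cells. The CSA arrays were above the DMSO arrays at both days, without overlap. The log2 difference was 0.71 ± 0.19 (moderated SE) at day 3, a 1.64-fold difference with limma adjusted p = 0.0345, and 0.56 ± 0.19 at day 6, with adjusted p = 0.0907. Over both days Irf9 was higher by 0.63 ± 0.13 (limma adjusted p = 0.00823), a call that held without any 1 array (adjusted p 0.00972 to 0.0375). The day 3 call rests on all arrays: it ended when any 1 array other than DMSO day 3 replicate 2 was left out, with adjusted p between 0.0502 and 0.206.

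Irf1, a factor that interferon gamma induces quickly, ran the other way. It had 7.73 and 8.11 in CSA cells at day 3, against 8.31 and 8.38 in DMSO cells, and 8.53 and 8.31 in CSA cells at day 6, against 8.92 and 8.72 in DMSO cells. The CSA arrays were below the DMSO arrays at each day. Over both days the difference was -0.41 ± 0.13 and did not pass (limma adjusted p = 0.0518), although it passed without CSA day 3 replicate 2, where it was -0.51 with adjusted p = 0.0406.

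Irf7, which amplifies interferon production, had 5.95 and 6.59 in CSA cells at day 3, against 3.49 and 6.04 in DMSO cells. The DMSO arrays differed from each other by more than the groups did, and the difference of 1.51 ± 0.66 did not pass (limma adjusted p = 0.192). At day 6 Irf7 stood at 7.16 and 7.24 with CSA, against 7.04 and 7.10 with DMSO. Stat2, which pairs with Irf9, had means of 5.93 with CSA and 5.54 with DMSO at day 3, and of 6.64 with CSA and 6.50 with DMSO at day 6. Its difference over both days was 0.26 ± 0.34, within the spread.

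As read from the brightest probe set of each gene, none of the 5 tested RNA sensors and their partners passed in a CSA comparison at either day, and 0 had an unadjusted limma p under 0.05. Ifih1 (MDA5), a sensor of long double-stranded RNA, averaged 6.97 with CSA and 6.62 with DMSO at day 3, and 7.86 with CSA and 7.28 with DMSO at day 6, a difference of 0.58 ± 0.31 at day 6 (limma adjusted p = 0.296). Ddx58 (RIG-I), which senses short RNA with a 5′ triphosphate, averaged 7.54 with CSA and 7.52 with DMSO at day 3, and 8.15 with CSA and 8.27 with DMSO at day 6. Dhx58 (LGP2), which modulates both sensors, averaged 5.27 with CSA and 5.68 with DMSO at day 3, and 5.19 with CSA and 5.52 with DMSO at day 6. Its 95% interval for the day 6 difference ran from -1.59 to 0.92. Trim25, a ubiquitin ligase that activates RIG-I, had 10.72 and 10.77 in CSA cells at day 3, against 10.74 and 10.65 in DMSO cells, and 11.20 and 11.25 in CSA cells at day 6, against 11.18 and 11.16 in DMSO cells. Its day 6 interval, from -0.12 to 0.22, belongs to this brightest probe set only. Of its other probe sets, one gave -0.09 at day 6 (adjusted p = 0.620) and the dimmest gave 0.87 (adjusted p = 0.0296), so the Trim25 probe sets disagree.

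Usp18, which removes ISG15 from proteins and dampens signalling from the type I receptor, had 5.84 and 5.71 in CSA cells at day 3, against 6.03 and 4.24 in DMSO cells. At day 6 it had 7.89 and 7.76 in CSA cells, against 5.99 and 5.90 in DMSO cells. The groups overlapped at day 3, and at day 6 both CSA arrays were above both DMSO arrays with a 3.67-fold difference between the means. The day 6 difference was 1.88 ± 0.54 and just missed the threshold (limma adjusted p = 0.0502), and the difference over both days was 1.26 ± 0.38 with adjusted p = 0.0488. The call over both days ended without any 1 array other than DMSO day 3 replicate 1, with adjusted p between 0.0786 and 0.131. The day 6 difference passed without DMSO day 3 replicate 1 (adjusted p = 0.0128) and without DMSO day 3 replicate 2 (adjusted p = 0.00700), and under 6 of 10 other settings. The call over both days ended under 4 of 9 such settings. Herc6, the mouse ligase that attaches ISG15, averaged 7.60 with CSA and 7.81 with DMSO at day 3, and 7.48 with CSA and 7.53 with DMSO at day 6.

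Among the 8 tested effectors that act on RNA, 5 differences were positive at day 3 and 8 at day 6, and the day 6 median was 0.87. Of all tested genes, 49.3% were positive at day 3 and 48.6% at day 6. None of the 8 passed at either day by limma, while 2 at day 3 and 3 at day 6 had a positive difference with an unadjusted p under 0.05. The filter shaped this set of 8 out of 11 listed. Below it, Oas3 gave -1.12 at day 6, Ifit1 2.07 and Oasl2 2.62. Ifit3 and Oas2 passed narrowly (means 5.48 and 5.57), with their highest group means in CSA cells at day 6 (6.78 and 6.77). Rsad2 (viperin), an enzyme that makes a chain-terminating nucleotide, had 6.60 and 6.73 in CSA cells at day 3, against 4.92 and 6.15 in DMSO cells, and 8.37 and 7.72 in CSA cells at day 6, against 7.21 and 6.51 in DMSO cells. The CSA arrays were higher at both days in this brightest probe set. Over both days the dimmer probe sets of Rsad2 gave -0.14 (limma adjusted p = 0.823) and 0.73 (adjusted p = 0.329), so they disagree in sign. In the brightest probe set Rsad2 was higher by 1.16 ± 0.31 over both days (limma adjusted p = 0.0280). That call ended without DMSO day 3 replicate 1 (0.0627), CSA day 3 replicate 1 (0.0694), CSA day 3 replicate 2 (0.0855), DMSO day 6 replicate 2 (0.103) or CSA day 6 replicate 1 (0.108), all adjusted p, and with the probe sets of Rsad2 averaged (0.58, adjusted p = 0.2). The other effectors included Oas1a and Oas2, enzymes that activate RNase L, and the Oas-like gene Oasl1. They also included the Ifit proteins, which bind viral RNA, the exonuclease Isg20 and the nucleotide kinase Cmpk2. The day 3 differences of these other effectors ran from -1.54 (Oas2) to 1.13 (Isg20), and their day 6 differences from 0.11 (Cmpk2) to 1.05 (Oasl1).

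Ifit2 had 6.51 and 7.08 in CSA cells at day 3, against 7.68 and 7.18 in DMSO cells, and 7.55 and 7.82 in CSA cells at day 6, against 6.54 and 7.12 in DMSO cells. The CSA arrays were below the DMSO arrays at day 3 and above them at day 6. Neither difference passed, and the test of the change between the days gave 1.49 ± 0.45 (limma adjusted p = 0.0930).

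The membrane restriction factors gave the member with the smallest p. Ifitm3 had 11.88 and 11.80 in CSA cells at day 3, against 12.49 and 12.49 in DMSO cells. At day 6 it had 12.72 and 12.81 in CSA cells, against 12.66 and 12.62 in DMSO cells. The CSA arrays were low at day 3 only, and at day 6 they lay slightly above the DMSO arrays. Ifitm3 fell by 0.65 ± 0.07 at day 3, a 1.57-fold difference (limma adjusted p = 0.000203), and the day 6 difference of 0.12 ± 0.07 did not pass (adjusted p = 0.286). The day 3 call held without any 1 array, with adjusted p between 0.000358 and 0.00558. Ifitm3 stands on 1 probe set, and the Ifitm genes are close paralogs whose cross-reaction on the array was not tested. Bst2 (tetherin), which holds budding virus at the cell surface, had 9.43 and 9.43 in CSA cells at day 3, against 9.45 and 9.53 in DMSO cells, and 9.28 and 9.33 in CSA cells at day 6, against 9.16 and 9.18 in DMSO cells. Its differences of -0.06 and 0.13 did not pass.

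Whether the CSA difference changed between the days was tested directly as an interaction. For Ifitm3 it was 0.77 ± 0.09 (limma adjusted p = 0.00174), with adjusted p between 0.00456 and 0.0152 when any 1 array was left out, and 0.114 without the intensity trend in the prior variance. This was the only member that passed, 1 of 30 called higher and 0 called lower by limma, against 2.36% and 3.43% of all genes, and 3 members had an unadjusted p under 0.05. Xaf1, at 0.72 ± 0.21, did not pass (adjusted p = 0.0796).

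All 4 tested GTPases, which attack the vacuoles of intracellular microbes, had positive differences at both days. This set of 4 out of 6 listed was shaped by the filter. Below it, Mx1 gave -0.84 at day 3 and -0.05 at day 6, and Mx2 gave -0.41 at day 3 and 0.24 at day 6. Gbp2 passed the filter narrowly (mean 5.38), with its highest group mean in CSA cells at day 6 (6.23). Irgm1, a regulator of the immunity-related GTPases, had 7.54 and 7.23 in CSA cells at day 3, against 7.03 and 6.91 in DMSO cells, and 7.96 and 8.28 in CSA cells at day 6, against 7.42 and 6.82 in DMSO cells. The CSA arrays were above the DMSO arrays at each day. Irgm1 was higher by 1.002 ± 0.27 at day 6 (limma adjusted p = 0.0382) and by 0.71 ± 0.19 over both days (adjusted p = 0.0287). The day 6 call ended without DMSO day 6 replicate 2 (0.70, adjusted p = 0.243), CSA day 6 replicate 2 (0.212), CSA day 6 replicate 1 (0.0712), CSA day 3 replicate 1 (0.0538) or CSA day 3 replicate 2 (0.0515). The call over both days ended without DMSO day 3 replicate 2, CSA day 3 replicate 1, DMSO day 6 replicate 2 or CSA day 6 replicate 2, with adjusted p up to 0.105. Gbp2, Gbp3 and Igtp did not pass, with day 6 differences of 1.53 ± 0.60, 1.16 ± 0.42 and 0.96 ± 0.99 in that order.

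Rtp4, a chaperone of receptors that also acts as a negative regulator of the interferon response, had 5.21 and 5.80 in CSA cells at day 3, against 4.84 and 3.41 in DMSO cells, and 8.34 and 8.21 in CSA cells at day 6, against 6.53 and 6.08 in DMSO cells. Both CSA arrays were higher at each day. The difference was 1.97 ± 0.53 at day 6, or 3.92-fold (limma adjusted p = 0.0387), and 1.67 ± 0.37 over both days (adjusted p = 0.0119). The day 6 call ended without any 1 of the 4 day 6 arrays, with adjusted p from 0.106 without DMSO day 6 replicate 1 to 0.199 without DMSO day 6 replicate 2, and without CSA day 3 replicate 2 (0.0511). The call over both days ended without CSA day 3 replicate 2 (0.05, at the threshold) or CSA day 6 replicate 1 (0.0528).

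Xaf1, an interferon-induced antagonist of a caspase inhibitor, had 9.01 and 9.29 in CSA cells at day 3, against 9.04 and 9.34 in DMSO cells. At day 6 it had 9.57 and 9.75 in CSA cells, against 9.01 and 8.96 in DMSO cells. The groups overlapped at day 3 and were apart at day 6, where Xaf1 was higher by 0.68 ± 0.15, or 1.60-fold (limma adjusted p = 0.0142). The call ended without DMSO day 6 replicate 1 (0.0668), DMSO day 6 replicate 2 (0.0883) or CSA day 6 replicate 2 (0.1), and the difference was 0.45 (adjusted p = 0.406) when both probe sets of Xaf1 were averaged. Ifi35, which binds other interferon-induced proteins, had 11.01 and 11.28 in CSA cells at day 3, against 10.76 and 11.05 in DMSO cells, and 11.13 and 11.36 in CSA cells at day 6, against 11.33 and 11.31 in DMSO cells, with overlap at both days. Parp9 and Parp14, ADP-ribosyltransferase family members, did not pass, with day 6 differences of 0.07 ± 0.18 and 0.55 ± 0.71.

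**Figure D3:**
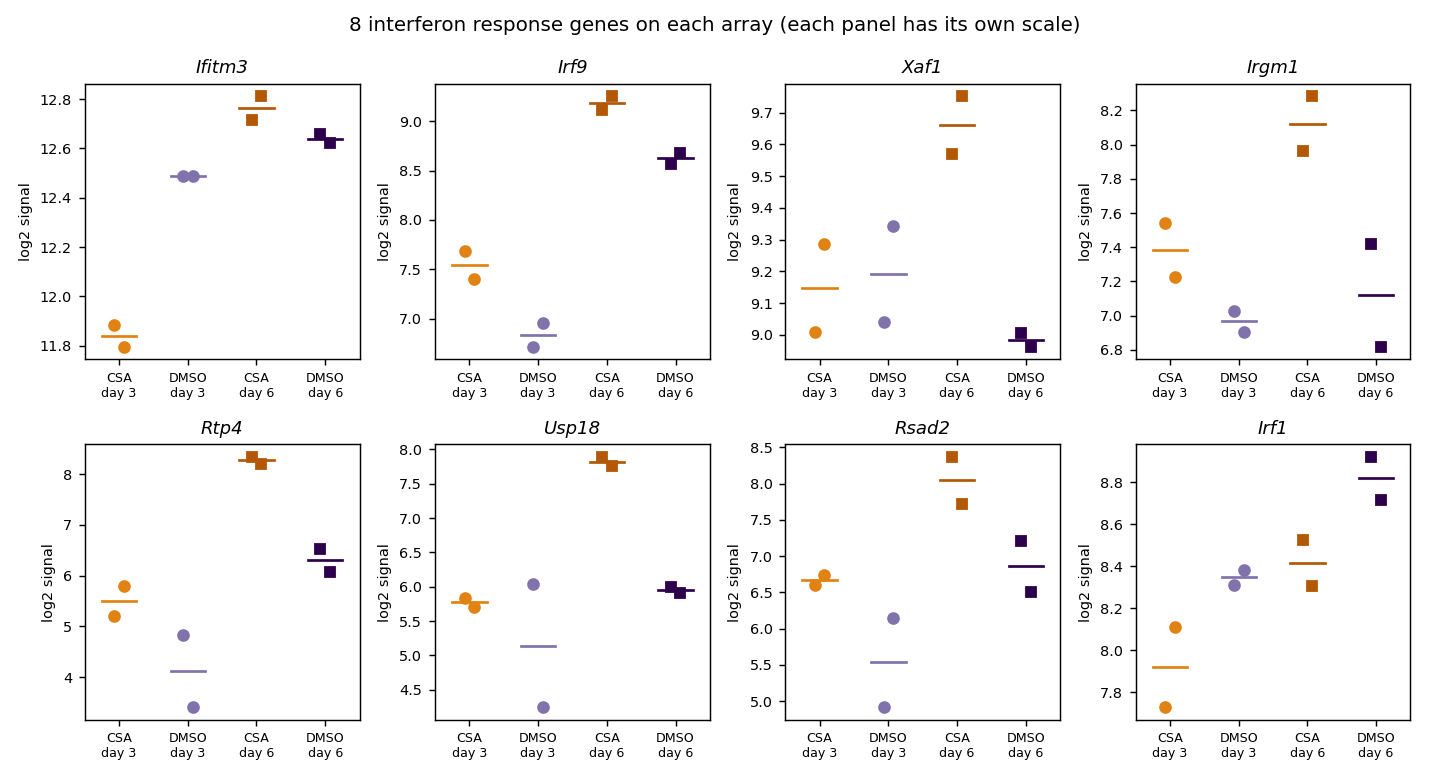
Log2 signal of 8 named interferon response genes in the 4 groups, with 1 point per array and a bar at each group mean, each panel on its own scale. Ifitm3 is low on both CSA arrays at day 3, while the CSA arrays of Rtp4, Usp18, Irgm1 and Xaf1 lie above the DMSO arrays at day 6. The vertical axes do not start at 0.

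The 7 members below the filter were not tested, and at this brightness the arrays of a group often lay far apart. At day 3 the CSA minus DMSO difference was positive for Oasl2 (0.62), Ifit1 (0.35) and Oas3 (0.31) and negative for Mx2 (-0.41), Mx1 (-0.84), Ddx60 (-1.21) and Cxcl10 (-1.64). Among these only Mx1, a GTPase that is defective in many laboratory mouse strains, did not overlap, with 4.06 and 4.87 in CSA cells, against 5.44 and 5.18 in DMSO cells. At day 6 the difference was positive for Oasl2 (2.62), Ifit1 (2.07), Ddx60 (1.72), the chemokine Cxcl10 (0.63) and Mx2 (0.24) and negative for Mx1 (-0.05) and Oas3 (-1.12).

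At day 6 Ifit1 had 6.70 and 7.13 in CSA cells, against 4.37 and 5.32 in DMSO cells. Ddx60, a cofactor of RNA sensing, had 3.92 and 3.94 in CSA cells, against 2.18 and 2.23 in DMSO cells. Oasl2 had 5.91 and 6.51 in CSA cells, against 1.51 and 5.67 in DMSO cells. The CSA and DMSO arrays of Ifit1, Ddx60 and Oasl2 did not overlap at day 6. Oas3, with 3.59 and 4.21 in CSA cells against 3.92 and 6.12 in DMSO cells, overlapped, as did Cxcl10, Mx1 and Mx2. With 2 arrays a group, such gaps can easily arise by chance at either day. The share of all probe sets without overlap was not counted, so these gaps are not read as a result.

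Between day 3 and day 6 more members moved than between treatments. In DMSO cells 8 of 30 were called higher at day 6 and 1 was called lower, against 26.1% and 19.6% of all genes, so the share called higher was near the background. In CSA cells 12 of 30 were called higher and 0 lower by limma, against 20.2% and 15.8% of all genes, and 17 members had an unadjusted p under 0.05. The median difference was 0.47 in DMSO cells and 0.73 in CSA cells, against 0.08 over all genes in each. Ddx58, Irf9, Parp9, Rsad2, Rtp4 and Trim25 passed in both treatments. Bst2, Ifi35 and Irf7 passed only in DMSO cells, and Ifih1, Ifitm3, Oas2, Parp14, Usp18 and Xaf1 only in CSA cells, but the difference between the courses is the interaction above, which only Ifitm3 passed.

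**Figure D4:**
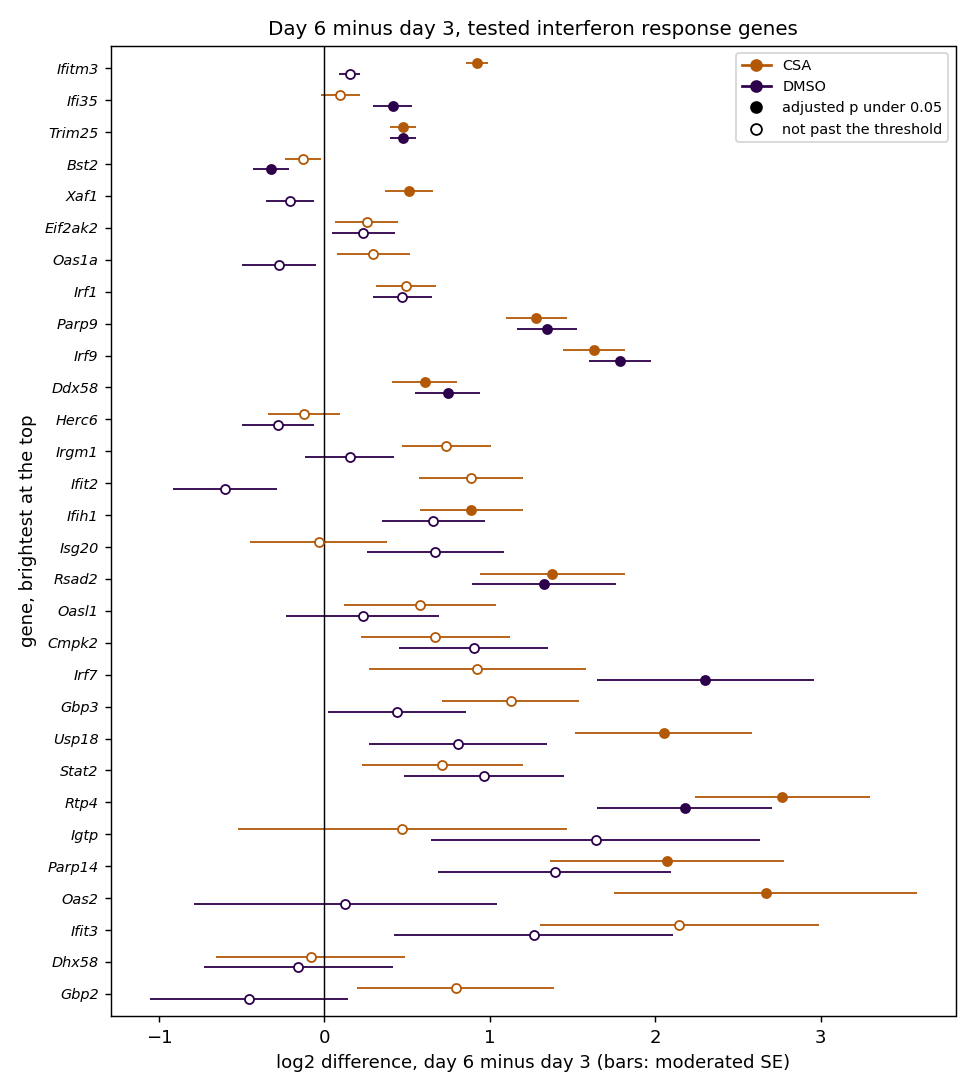
Log2 difference of day 6 minus day 3 for the 30 tested members in CSA cells and in DMSO cells, with moderated standard errors, and filled points where the adjusted p is under 0.05. Irf9, Parp9, Trim25 and Rtp4 lie right of 0 in both treatments, while Ifitm3 does so clearly in CSA cells only.

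Irf9 was higher at day 6 by 1.63 ± 0.19 in CSA cells and by 1.79 ± 0.19 in DMSO cells (limma adjusted p 8.83e-05 and 2.2e-05), and both calls held without any 1 array. Parp9, which forms a complex with the ligase Dtx3l, had 8.84 and 8.84 at day 6 in CSA cells, against 7.57 and 7.56 at day 3. In DMSO cells Parp9 had 8.84 and 8.71 at day 6, against 7.63 and 7.23 at day 3. It rose by 1.28 ± 0.18 in CSA cells and by 1.35 ± 0.18 in DMSO cells (limma adjusted p = 0.000368 and 0.000138). Trim25 rose by 0.48 ± 0.08 in each treatment (adjusted p = 0.000888 with CSA and 0.000505 with DMSO). In DMSO cells its 3 probe sets disagreed in sign: another gave 0.45 (adjusted p = 0.00219) and the remaining one gave -0.76 (adjusted p = 0.0165). In CSA cells these 2 gave 0.35 (adjusted p = 0.013) and 0.37 (adjusted p = 0.239), in that order. Ifitm3 rose by 0.92 ± 0.07 in CSA cells (adjusted p = 3.82e-06), against a difference of 0.15 ± 0.07 in DMSO cells (adjusted p = 0.0851).

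Rtp4 rose by 2.77 ± 0.53 in CSA cells and by 2.18 ± 0.53 in DMSO cells (limma adjusted p = 0.00235 and 0.00639), or 6.82-fold and 4.53-fold. The DMSO call ended without DMSO day 6 replicate 1 (adjusted p = 0.0515). Irf7 rose by 2.30 ± 0.66 in DMSO cells (adjusted p = 0.0153), a value that rests on the low DMSO array of day 3: without DMSO day 3 replicate 1 it was 1.03 with adjusted p = 0.0730. It also ended without DMSO day 6 replicate 1 (0.0628) or DMSO day 6 replicate 2 (0.0718). Usp18 rose by 2.05 ± 0.54 in CSA cells (adjusted p = 0.0137), and ended without any 1 of the 4 CSA arrays, with adjusted p up to 0.0785.

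The remaining calls of the day courses were weaker in the leave-one-out fits. Rsad2 rose by 1.38 ± 0.44 in CSA cells and 1.33 ± 0.44 in DMSO cells, and its limma calls ended without CSA day 3 replicate 1 or 2 or CSA day 6 replicate 1, or without DMSO day 3 replicate 1 (0.71, adjusted p = 0.216) or DMSO day 6 replicate 1. Ddx58 rose by 0.61 ± 0.20 in CSA cells and 0.75 ± 0.20 in DMSO cells. The first call ended without any 1 of the 4 CSA arrays (adjusted p up to 0.153), and the second without DMSO day 6 replicate 2 (0.0960). Xaf1 rose by 0.51 ± 0.15 in CSA cells, and the call ended without CSA day 3 replicate 1 (0.37, adjusted p = 0.164) or CSA day 6 replicate 2 (0.124).

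A pair of the dimmest tested members rose in CSA cells on widely spread arrays. Oas2 stood at 2.68 and 5.52 at day 3 in CSA cells and rose by 2.67 ± 0.92 (limma adjusted p = 0.0458). Without CSA day 3 replicate 1 the difference was 1.25 with adjusted p = 0.321, and the call also ended without either CSA day 6 array or either DMSO day 3 array. Parp14 stood at 5.64 and 3.68 at day 3 in CSA cells and rose by 2.07 ± 0.71 (adjusted p = 0.0445). Without CSA day 3 replicate 2 the difference was 1.09 with adjusted p = 0.280, and the call ended without any 1 of the 4 day 6 arrays as well. Ifih1 rose by 0.89 ± 0.31 in CSA cells (adjusted p = 0.0495), and the call ended without any 1 array other than CSA day 6 replicate 2, with adjusted p up to 0.338.

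In DMSO cells Ifi35 rose by 0.41 ± 0.12 (limma adjusted p = 0.0161), while its other probe sets gave -0.13 and -0.56 (adjusted p = 0.0327 for the last). The call ended without DMSO day 3 replicate 1, DMSO day 6 replicate 1 or DMSO day 6 replicate 2, with adjusted p up to 0.134. Bst2 fell by 0.32 ± 0.11 in DMSO cells (adjusted p = 0.0355), the only member called lower between the days as deposited. The Bst2 call ended without any 1 of the 8 arrays other than the CSA arrays of day 6, with adjusted p up to 0.136.

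The wider pathway was read from lists of related genes, set beside the shares of all genes called with CSA, 7.14% higher and 5.52% lower at day 3 and 6.41% higher and 6.11% lower at day 6. Most list counts lie near these shares, so the genes named are single calls and not results about a list. Without the intensity trend the CSA calls named in these lists ended, except those of Gbp7 and the calls of Ifi27 and Tlr4 over both days. Of 7 tested interferon ligands and receptors, 1 was called higher with CSA at day 3 and 0 at day 6 by limma, where 3 had an unadjusted p under 0.05. Ifngr1, the ligand-binding chain of the interferon gamma receptor, averaged 9.44 with CSA and 8.82 with DMSO at day 3, a rise of 0.62 ± 0.14 (limma adjusted p = 0.0158), and 9.75 with CSA and 9.66 with DMSO at day 6. That call ended without DMSO day 3 replicate 2 (0.0732) or CSA day 3 replicate 2 (0.150). Ifnb1, the gene of interferon beta, was dim, averaging 4.78 with CSA and 5.41 with DMSO at day 3 and 5.81 with CSA and 5.69 with DMSO at day 6, and Ifng was below the filter.

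Of 14 tested genes of JAK-STAT signalling and its inhibitors, 0 were called at day 3 by limma, where 4 had an unadjusted p under 0.05, and 1 was called higher and 1 lower at day 6. Socs3, a feedback inhibitor of JAK kinases, averaged 10.81 with CSA and 11.32 with DMSO at day 6 and fell by 0.51 ± 0.14 (limma adjusted p = 0.0472). Ptpn11, the phosphatase SHP2, averaged 11.70 with CSA and 11.45 with DMSO at day 6 and rose by 0.25 ± 0.07 (adjusted p = 0.0447). Both calls ended without any 1 array other than DMSO day 3 replicate 1 or 2, with adjusted p up to 0.201 for Socs3 and 0.208 for Ptpn11.

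Of 18 tested genes of nucleic acid sensing and interferon induction, 1 was called higher at day 3 and 2 lower at day 6. Over both days 2 were called higher and 3 lower, against 9.68% and 8.87% of all genes, and not all of these are named below. Tlr4, a receptor for bacterial lipopolysaccharide, averaged 7.54 with CSA and 6.32 with DMSO at day 3 and rose by 1.22 ± 0.30 (limma adjusted p = 0.0247), and over both days by 1.01 ± 0.21 (adjusted p = 0.00824). The day 3 call ended without DMSO day 3 replicate 2 (0.118), CSA day 3 replicate 1 (0.147) or CSA day 3 replicate 2 (0.0978), while the call over both days held without any 1 array. Rnaseh2a, a subunit of the enzyme that removes RNA from DNA hybrids, averaged 9.86 with CSA and 10.43 with DMSO at day 6 and fell by 0.56 ± 0.10 (adjusted p = 0.00616), a call that ended without DMSO day 6 replicate 1 (0.0587). Nfkbia, the inhibitor of NF-kB, averaged 12.87 with CSA and 13.24 with DMSO at day 6 and fell by 0.37 ± 0.10 (adjusted p = 0.0364), and by 0.33 ± 0.07 over both days (adjusted p = 0.00875). Its day 6 call ended without any 1 array other than DMSO day 3 replicate 1 or 2 (adjusted p up to 0.239), and the call over both days held without any 1 array.

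Of 10 tested genes of MHC class I presentation, 0 were called at day 3 by limma, where 1 had an unadjusted p under 0.05, and 1 was called higher at day 6. B2m, the light chain of MHC class I, averaged 13.30 with CSA and 13.42 with DMSO at day 3, and 13.14 with CSA and 12.73 with DMSO at day 6. It was higher by 0.41 ± 0.06 at day 6 (limma adjusted p = 0.00222), and the CSA difference changed between the days by 0.54 ± 0.09 (adjusted p = 0.00987). The interaction call ended without CSA day 3 replicate 1 (0.0540), and both calls ended without the intensity trend (adjusted p = 0.0926 at day 6 and 0.177 for the interaction). Tapbp, which loads peptides, fell by 0.20 ± 0.06 over both days (adjusted p = 0.0391), and the call ended without any 1 array other than DMSO day 3 replicate 2 or CSA day 6 replicate 2, with adjusted p up to 0.119.

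Of 62 further interferon-induced genes, 31 were tested, and 3 were called higher and 0 lower with CSA at day 3 by limma, where 1 negative difference had an unadjusted p under 0.05. At day 6, 3 were called higher and 1 lower. Gbp7, a guanylate-binding protein of the same family as Gbp2 and Gbp3, averaged 7.92 with CSA and 7.09 with DMSO at day 3, and 9.27 with CSA and 7.97 with DMSO at day 6. It rose by 0.83 ± 0.17 at day 3 and by 1.30 ± 0.17 at day 6 (limma adjusted p = 0.0105 and 0.000744), and only the day 3 call ended when 1 array was left out, CSA day 3 replicate 1 (0.0616) or CSA day 3 replicate 2 (0.0662). Ifi27, a mitochondrial protein, rose by 0.96 ± 0.20 at day 6 (adjusted p = 0.0119) and ended without DMSO day 6 replicate 1 (0.0762), DMSO day 6 replicate 2 (0.0643) or CSA day 6 replicate 1 (0.0945), while its rise of 0.75 ± 0.14 over both days held (adjusted p = 0.00491). Lgals9, a galectin, rose by 0.38 ± 0.08 at day 6 (adjusted p = 0.0135) and ended without DMSO day 6 replicate 1 (0.116) or CSA day 6 replicate 2 (0.0934). From day 3 to day 6, 12 of the 31 were called higher and 0 lower by limma in CSA cells (0 lower also at an unadjusted p under 0.05), against 20.2% and 15.8% of all genes. In DMSO cells 14 were called higher and 2 lower, against 26.1% and 19.6% of all genes.

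Markers of other cells were read beside these results. The summed linear signal of 11 macrophage markers was 747 to 788 with CSA and 861 to 922 with DMSO at day 3, and 1021 to 1090 with CSA and 966 to 983 with DMSO at day 6. Of the 6 tested, 0 were called with CSA at either day by limma, with 1 unadjusted p under 0.05 at day 3 and 0 at day 6, and 1 was called lower over both days. Ptprc, which marks blood cells, was below the filter and not tested. Its mean was 2.60 with CSA and 5.32 with DMSO at day 3, and 4.61 with CSA and 3.98 with DMSO at day 6. The macrophage markers were mixed in sign. At day 3 Aif1, also below the filter, averaged 4.74 with CSA and 3.12 with DMSO, and Cd14 averaged 7.25 with CSA and 6.82 with DMSO. All 7 lymphoid and dendritic markers with a probe set were below the filter, and no marker list had a gene with a group mean of 0. The sum of 9 fibroblast markers was 24133 to 24619 with CSA and 25183 to 26428 with DMSO at day 3, and 32544 to 32765 with CSA and 37534 to 37891 with DMSO at day 6. The sum of 9 early reprogramming and pluripotency markers was 9061 to 9498 with CSA and 7511 to 7895 with DMSO at day 3, and 9179 to 9619 with CSA and 13316 to 13887 with DMSO at day 6. Of the 9 tested fibroblast markers, 1 was called higher and 2 lower with CSA at day 3, and 1 lower at day 6. Of the 6 tested reprogramming markers, 2 were called higher at day 3 and 3 lower at day 6, and 3 were called lower in the interaction. A linear sum gives most weight to its brightest genes. These markers differed between treatments and days, and their part in the results was not tested.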

How the data were processed

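Gene expression was measured on 8 Affymetrix 3′ arrays of total RNA, in 4 groups of 2 taken from the labels. The authors deposited log2 values for 45037 probe sets on each array, made with MAS5 per the submitters' processing notes, which give no version or scaling target. MAS5 scales each array by a constant. The deposited log2 values were used as they stood. Precision is limited by how few arrays there are.

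Of the probe sets, 34945 had 1 symbol in the platform annotation, 932 had several and 9160 were unlisted. The 27022 probe sets with a mean at or above 5.37 (40th percentile) were fitted with limma 3.58.1 in R 4.3.3: 1 mean per group, 4 residual degrees of freedom, empirical Bayes with an intensity trend, two-sided tests and Benjamini-Hochberg adjustment. The effect over both days is the mean of the day 3 and day 6 effects. The pipeline was run on data simulated from its own fitted model, which checks the code and not how well the model suits these arrays. A p-value sets a group difference against the spread between these arrays, moderated by that of other probe sets of like brightness. The moderation had a median of 7.27 prior degrees of freedom, against the 4 residual ones.

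The members and lists were chosen with earlier results of these data known. Arrays are printed for members that passed a CSA comparison or the interaction, the 4 brightest, and up to 4 members with the smallest p in each day course; per list, up to 3 genes that passed a CSA comparison are named. Other members were named after their values were seen. Replicate numbers did not pair the arrays: deviations of same-numbered arrays correlated at -0.00 to 0.03. Alternatives were the filter, normalization, trend, low-signal floors, samples in the fit, replicate block, probe set choice and each array left out.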

Additional observations from a re-analysis of the deposited data

Results flagged for a closer look

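The CSA difference of Ifitm3 changed between the days. The day 6 difference exceeded the day 3 difference by 0.77 ± 0.09 on the log2 scale (limma adjusted p = 0.00174), with both CSA arrays below both DMSO arrays at day 3 and above them at day 6. The CSA difference of B2m also changed, by 0.54 ± 0.09 (limma adjusted p = 0.00987), being negative at day 3 and positive at day 6. Without the intensity trend both calls ended, with adjusted p = 0.114 for Ifitm3 and 0.177 for B2m, and the B2m call ended without CSA day 3 replicate 1 (0.0540). Each was marked because the test of the difference between the days passed the threshold.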

How the results depend on the processing

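Counts of called members depended on the settings. At day 3, 2 members were called with CSA, against 1 with no filter, 1 with no intensity trend, 1 with only the arrays compared and 1 without probe sets ending x, s or a. At day 6, 3 were called, against 1 with no filter, 6 with only the arrays compared, 1 when the probe sets of a gene were averaged, and 0 by limma with no trend, where 9 members had an unadjusted p under 0.05. Over both days 6 were called, against 1 with no trend and 3 with the mean of probe sets. The interaction had 1, against 0 by limma with no trend, where 4 members had an unadjusted p under 0.05. In the DMSO day course 9 were called, against 5 without probe sets ending x, s or a and 5 with the mean of probe sets. In the CSA day course 12 were called, against 6 with quantile normalization and 6 with the mean of probe sets. Leaving out 1 array gave 1 to 4 calls at day 3, 0 to 5 at day 6, 3 to 7 over both days, 1 to 2 for the interaction, 5 to 9 for the DMSO course and 6 to 12 for the CSA course. Quantile normalization shifted the median of all genes between days to -0.03 in DMSO and -0.02 in CSA cells, against 0.08 in each as deposited, and called 7 members higher and 3 lower in the DMSO course, against 8 and 1.

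Signs turned for Usp18 at day 3 without DMSO day 3 replicate 2 (-0.26, and up to 1.53 without another array), for Ifi35 in the DMSO course without probe sets ending x, s or a (-0.13) and with the mean of probe sets (-0.091), and for Ddx58 in the DMSO course with the mean of probe sets (-0.069). The cause was not tested. With the replicate block, 2, 4, 7, 1, 9 and 10 members were called in the same order of comparisons, and the numbers do not pair the arrays. Of the values of named genes under all alternatives, 807 kept their direction and side of the threshold, 207 lost the call and 11 gained one. The calls of Ifitm3 at day 3 and in the CSA course, of Irf9 over both days and in both courses, and of Parp9 in both courses held under all alternatives that included the gene. So did those of Rtp4 and Trim25 in the CSA course and, among the list genes, of Gbp7, Ifi27 and Tlr4 over both days. Not every gene was present in each alternative: Irf9 dropped out without probe sets ending x, s or a. The spread of dim members limits many other calls: with 2 arrays a group, the median standard error of a member's difference was 0.36.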
